A study of Caenorhabditis elegans with 8 samples.

Results

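The genes described here are the 39 genes of Caenorhabditis elegans whose name starts with ins-, out of 20541 genes listed in each deposited table. They were taken by name from both tables, with no use of their values. All 39 identifiers are in the WBcel235 annotation, 38 as protein-coding genes and 1, ins-38, as a pseudogene. The family's remaining insulin-like gene with another name, daf-28, was added for comparison and is not counted among them.

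Insulin-like peptides are small secreted hormones, made as precursors that are cut by proteases in the secretory pathway and released from neurons, intestine and other tissues. Some of them activate and others inhibit DAF-2, the worm's insulin receptor, which acts through the kinases AGE-1, PDK-1 and AKT-1 to keep the FOXO transcription factor DAF-16 out of the nucleus. The pathway is known for its part in the choice between growth and the arrested dauer larva, in adult lifespan, in metabolism and in learning.

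Polyadenylated RNA came from whole young adults of 2 strains, N2, the wild type, and HC125. Per the series' design, the strain set against the wild type carries Psid-1::gfp, a transgene in which the promoter of sid-1 drives green fluorescent protein, so HC125 is read as the transgenic strain. There were 8 libraries, with 2 of each strain in an unstranded paired-end experiment (replicates 1 and 2) and 2 of each strain in a stranded single-end experiment (replicates 3 and 4). The RNA of sid-1 was at 31.9 FPKM for N2 and 2.11 FPKM for HC125 with paired ends and at 12.9 and 0.818 FPKM with single ends. The order of strains was thus the same in both experiments. No label states the level expected in HC125, so these values do not identify the strain. FPKM is the number of fragments per kilobase of a transcript, relative to all fragments mapped, so it can be compared between genes of different length within a table. Each table holds 1 pooled FPKM value per gene and strain, so 4 values stand behind each gene and no spread between libraries can be printed. The number of reads is unknown. In whole worms, fewer cells of a type and less RNA per cell cannot be told apart.

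Most insulin-like peptide genes were at low levels in young adults, and some did not reach 1 FPKM. Of the 39 genes, 17 were at 1 FPKM or more in all 4 values, 9 in some of them and 13 in none. Over all 20541 genes these counts were 10645, 2726 and 7170. The share at 1 FPKM or more in all 4 values was 43.6% for the family and 51.8% for all genes. Genes below 1 FPKM throughout are thus not particular to the family. No insulin-like gene reached 100 FPKM, and 7 reached 10 FPKM in at least 1 value. Of all genes, 2240 and 8118 reached these levels in at least 1 value. The genes are short, with a median annotated transcript of 393 bases against 1161 bases over all genes in the tables, and at a given FPKM a short gene rests on fewer fragments.

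**Figure D1:**
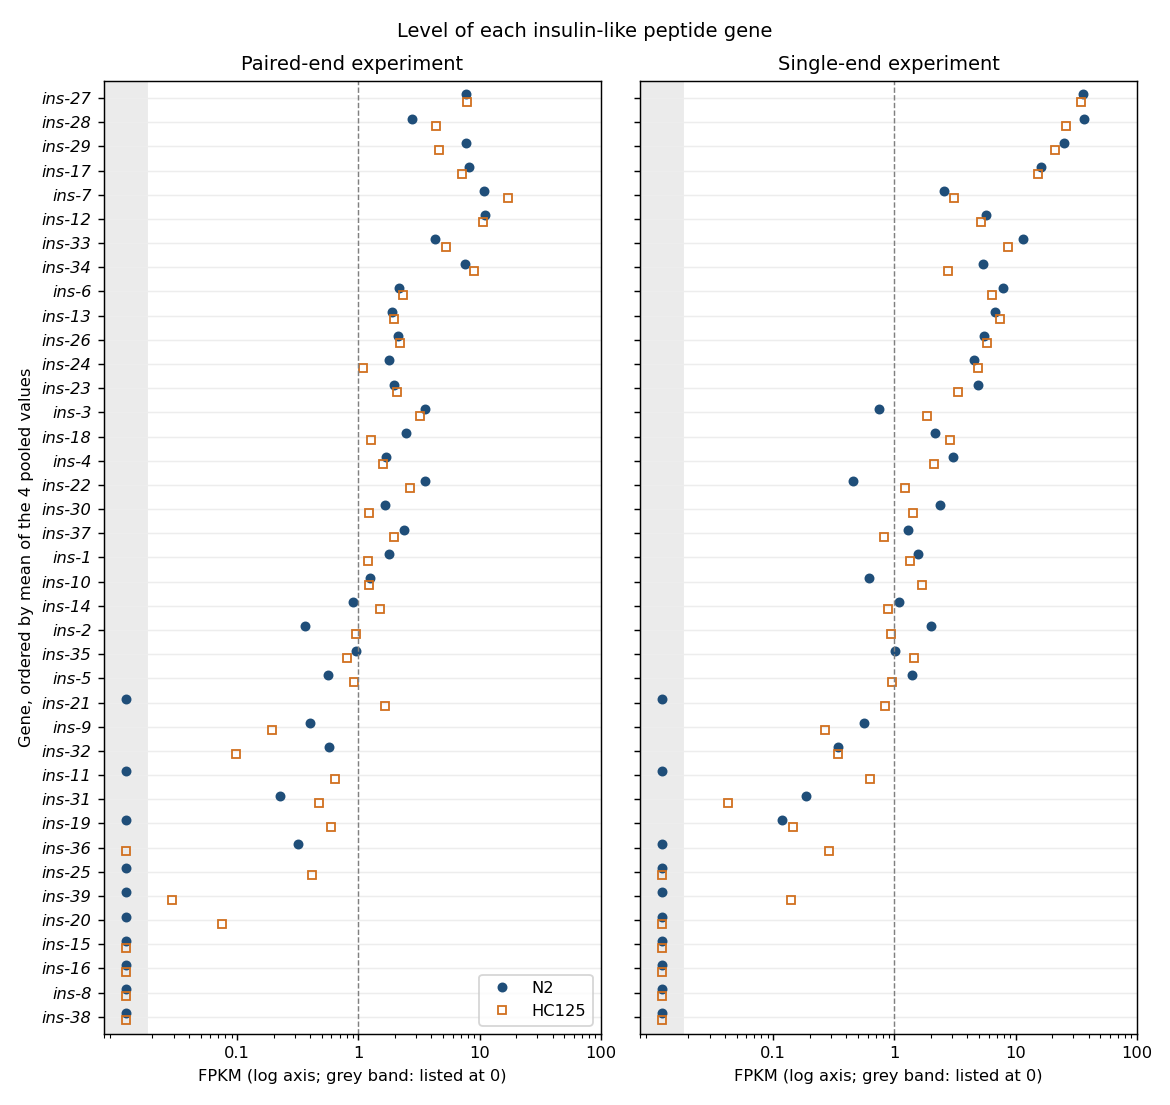
Each row is 1 of the 39 insulin-like peptide genes and each point its pooled FPKM on a log axis, for N2 (filled circles) and HC125 (open squares), with the paired-end experiment on the left and the single-end experiment on the right. The dashed line marks 1 FPKM and the grey band holds values listed at 0. ins-28 and ins-7 stand at different places in the order of the 2 experiments.

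The family's median level was lower than those of 2 other large peptide gene families. Of the 31 flp- genes, which encode FMRFamide-like neuropeptides, 30 were at 1 FPKM or more in all 4 values. Of the 44 nlp- genes, a broad group of neuropeptide-like genes, 37 were. The median level, as the mean of both strains, was 1.44 FPKM for ins- genes, 8.21 FPKM for flp- genes and 7.39 FPKM for nlp- genes in the paired-end libraries. In the single-end libraries the medians were 1.22, 10.5 and 7.07 FPKM. These are descriptions of the levels in this stage, with no test between families.

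**Figure D2:**
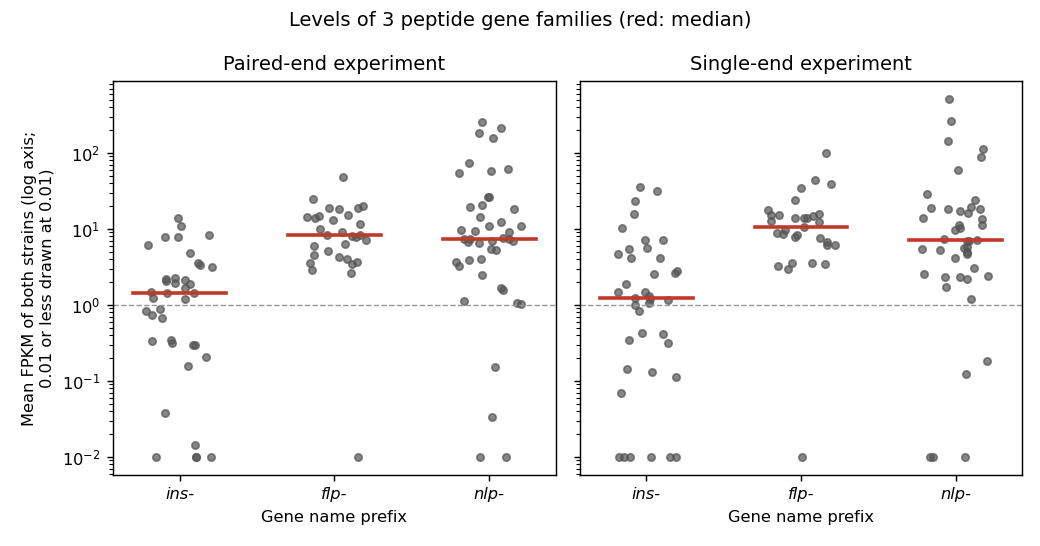
Points are genes, placed by the mean FPKM of both strains on a log axis, for the ins-, flp- and nlp- families in the paired-end (left) and single-end (right) experiment. Red bars are medians, at 1.44, 8.21 and 7.39 FPKM on the left and 1.22, 10.5 and 7.07 FPKM on the right, and the ins- genes reach down to 0 in larger number.

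Of ins-4, ins-6 and daf-28, whose peptides are known to activate the receptor and favour growth over dauer, the latter 2 had the higher levels in the single-end libraries. ins-6, a peptide of sensory neurons that promotes exit from dauer, stood at 2.18 FPKM for N2 and 2.33 FPKM for HC125 with paired ends and at 7.93 and 6.37 FPKM with single ends. daf-28, whose peptide inhibits dauer entry, had 4.03 and 2.91 FPKM with paired ends, 6.63 and 6.45 FPKM with single ends. ins-4, which acts with daf-28 in the same choice, had 1.69 and 1.60 FPKM with paired ends, 3.05 and 2.14 FPKM with single ends. All 3 were expressed in both strains, and none was called as different between them.

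ins-7, an intestinal and neuronal agonist whose gene is itself held down by DAF-16, had the highest mean level of the family in the paired-end libraries and ranked 13 in the single-end libraries. It was at 10.9 FPKM for N2 and 17.01 FPKM for HC125 in the first and at 2.55 and 3.07 FPKM in the second. The ratio of HC125 over N2 was 1.56 (95% interval 0.519 to 4.71) and 1.21 (0.339 to 4.29). These intervals rest on the standard error that the authors' test statistic implies and both include a ratio of 1. Its neighbour ins-8, on the same strand of chromosome IV, was listed at 0 in all 4 values. ins-35, known with ins-7 from the intestine of larvae deciding on dauer, was near the detection line, with 0.962 and 0.812 FPKM from paired ends, 1.01 and 1.44 FPKM from single ends.

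ins-3 and ins-33 are known for promoting proliferation of the larval germ line. ins-33, which the heterochronic factor LIN-14 represses in early larvae, stood at 4.32 FPKM for N2 and 5.29 FPKM for HC125 with paired ends and at 11.6 and 8.66 FPKM with single ends. ins-3 had 3.53 and 3.22 FPKM with paired ends, 0.749 and 1.85 FPKM with single ends. In that second table ins-3 had the smallest p of the family, and it is taken up with the strain comparison.

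ins-1, ins-18 and ins-23, 3 genes whose peptides have been described as inhibitors of the receptor, were below 5 FPKM in every value. ins-1, which acts in salt and temperature learning, stood at 1.80 FPKM for N2 and 1.19 FPKM for HC125 with paired ends and at 1.58 and 1.34 FPKM with single ends. ins-18 had 2.45 and 1.27 FPKM with paired ends, 2.14 and 2.87 FPKM with single ends, so its order of strains differed between experiments. ins-23 had 1.98 and 2.09 FPKM with paired ends, 4.90 and 3.36 FPKM with single ends. None of the 3 had a p of 0.05 or less before adjustment in the authors' deposited tables.

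ins-17 ranked high in both experiments. It stood at 8.20 FPKM for N2 and 7.21 FPKM for HC125 with paired ends and at 16.2 and 15.3 FPKM with single ends, rank 5 and rank 4 within the family. It also had the smallest implied error of the family, 0.80 and 0.48 on the log2 scale. The ratio of 0.944 in the single-end libraries had a 95% interval from 0.494 to 1.80, so even there a change to near 0.5 or near 1.8 times the N2 level is inside the interval.

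The family is clustered in the genome, and the largest cluster carried a large part of its RNA. With members no more than 20 kb apart counted together, 26 of the 39 genes lie in 7 clusters and 13 stand alone. The cluster rule was chosen with the positions known. The cluster on chromosome I holds 7 genes between 14012442 and 14037803, a span of 25.4 kb, in the order ins-28, ins-29, ins-25, ins-27, ins-24, ins-30 and ins-26. Its 7 genes held 25.6% of the summed FPKM of the family for N2 and 22.2% in HC125 with paired ends. In the single-end libraries they held 58.6% and 56.9%, so this share differed far more between experiments than between strains.

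Within that cluster 3 genes stood high and 1 was nearly silent. ins-27 stood at 7.75 FPKM for N2 and 7.93 FPKM for HC125 with paired ends and at 35.7 and 34.8 FPKM with single ends. ins-28 had 2.76 and 4.35 FPKM with paired ends, 36.9 and 26.0 FPKM with single ends, which moved it from rank 8 to rank 2 in the family. ins-29 had 7.68 and 4.62 FPKM with paired ends, 25.004 and 21.02 FPKM with single ends. These are the 3 highest genes of the family in the single-end libraries. ins-25, which lies between ins-29 and ins-27, was listed at 0 in 3 values and was at 0.417 FPKM in HC125 in the paired-end libraries.

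The remaining genes of the cluster were at a few FPKM. ins-24 stood at 1.80 FPKM for N2 and 1.10 FPKM for HC125 with paired ends and at 4.55 and 4.92 FPKM with single ends. ins-26 had 2.12 and 2.19 FPKM with paired ends, 5.45 and 5.76 FPKM with single ends. ins-30 had 1.66 and 1.23 FPKM with paired ends, 2.38 and 1.43 FPKM with single ends. No gene of the cluster had a p of 0.05 or less before adjustment in the authors' deposited tables. The files give ins-27 an interval of 921 bases against 353 bases in the WBcel235 annotation, so its value comes from a gene model unlike that one.

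**Figure D3:**
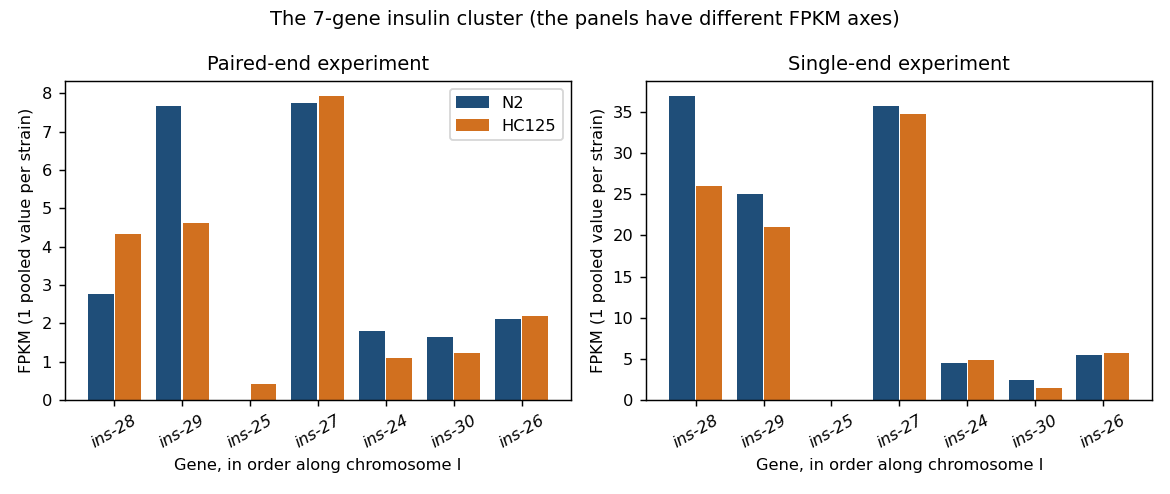
Bars are the pooled FPKM of N2 and HC125 for the 7 genes of the chromosome I cluster in their order along the chromosome, with the paired-end experiment on the left and the single-end experiment on the right on separate linear axes. ins-27, ins-28 and ins-29 reach 21.02 to 36.9 FPKM on the right, and ins-25 is at 0 there.

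The second largest cluster, on chromosome II between 5988526 and 6011321, holds ins-2, ins-3, ins-4, ins-5, ins-6 and ins-20. ins-2 stood at 0.362 FPKM for N2 and 0.961 FPKM for HC125 with paired ends and at 1.99 and 0.939 FPKM with single ends. ins-5 had 0.559 and 0.924 FPKM with paired ends, 1.40 and 0.957 FPKM with single ends. Both thus had the higher value in HC125 in the first experiment and in N2 in the second. ins-20 was at 0.0756 FPKM in HC125 in the paired-end libraries and listed at 0 in the other 3 values.

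In the cluster of 4 genes on chromosome II between 5530501 and 5557088, ins-12 and ins-13 were detected throughout. ins-12 stood at 11.02 FPKM for N2 and 10.7 FPKM for HC125 with paired ends and at 5.65 and 5.21 FPKM with single ends. ins-13 had 1.89 and 1.96 FPKM with paired ends, 6.70 and 7.42 FPKM with single ends, and the pseudogene ins-38 was listed at 0 in all 4 values. The value of ins-13 is uncertain. The files give it an interval of 2906 bases against 353 in the WBcel235 annotation, where it overlaps acdh-2 on the same strand over 87 exonic bases, and acdh-2 had 158 and 126 FPKM from paired ends, 27.5 and 24.9 FPKM from single ends. The implied error of ins-13 was 22.5 on the log2 scale in the paired-end libraries. It rests on a test statistic of 0.0024, while the authors' deposited test gave p = 0.867. These 2 do not match when the statistic is read as a normal score, so no statement on its ratio is made.

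Overlaps with other annotated genes also touch ins-10, ins-34, ins-36 and ins-37. ins-10 stood at 1.24 FPKM for N2 and 1.22 FPKM for HC125 with paired ends and at 0.614 and 1.68 FPKM with single ends, and it shares 74 exonic bases with vps-39 on the opposite strand. The files give it an interval of 4378 bases against 448 in the annotation, and its implied errors were 17.4 and 6.26 on the log2 scale. With paired ends its test statistic of -0.0018 and p = 0.927 in the authors' deposited test do not match as a normal score either. Its ratio is thus left undetermined. ins-34 had 7.60 and 8.92 FPKM with paired ends, 5.40 and 2.77 FPKM with single ends, and it shares 82 exonic bases with nkcc-1 on the opposite strand. nkcc-1 stood at 52.1 and 51.0 FPKM in the paired-end libraries, where reads of both strands cannot be told apart.

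Among the rest, ins-22, ins-37 and ins-14 were near 1 FPKM in at least 1 experiment. ins-22, which lies with ins-21 and ins-23 within 4.80 kb of chromosome III, stood at 3.55 FPKM for N2 and 2.66 FPKM for HC125 with paired ends and at 0.453 and 1.22 FPKM with single ends. ins-37 had 2.36 and 1.97 FPKM with paired ends, 1.30 and 0.816 FPKM with single ends, and in the annotation it shares exonic bases at one end with F08G2.9, a small nuclear RNA gene on the same strand, and with a non-coding RNA gene, R05D7.8, on the opposite strand. ins-14 had 0.897 and 1.51 FPKM with paired ends, 1.10 and 0.887 FPKM with single ends, while ins-15 next to it was listed at 0 in all 4 values.

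In all, 4 genes were listed at 0 in every value, namely ins-8, ins-15, ins-16 and ins-38, as were 1506 of all 20541 genes. Of the 13 genes below 1 FPKM throughout, the highest single value was 0.639 FPKM, for ins-11 in HC125. ins-9, which was tested in both tables, had 0.4004 and 0.192 FPKM with paired ends, 0.566 and 0.268 FPKM with single ends. The remaining genes of this group, ins-19, ins-20, ins-25, ins-31, ins-32, ins-36 and ins-39, lay between 0 and 0.597 FPKM. With the number of reads unknown, these values do not show that the genes are off.

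The order of levels within the family was largely shared between strains and less so between experiments. Across the 39 genes, Spearman's rho between N2 and HC125 was 0.911 with paired ends and 0.943 in the single-end libraries. Between the experiments it was 0.856 in N2. These are descriptions across genes, which share their libraries. The 5 highest genes held 49.1% of the family's summed FPKM for N2 and 52.6% in HC125 with paired ends, and 66.9% and 64.1% in the single-end libraries.

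No insulin-like peptide gene was called as different between HC125 and N2 in either experiment. The authors' deposited table for the paired-end experiment tested 31 members and called 0 at a q of 0.05 or less, where 0.212% of all tested genes were called. The single-end table tested 26 and called 0, where 0.122% of all tested genes were called. No member was called in both tables, where 0.0386% of genes tested in both were called in the same direction. With backgrounds this low, 0 calls in a family of this size says little. At an unadjusted p of 0.05 or less in the authors' deposited tables there were 3 members with paired ends and 1 in the single-end libraries, all higher in HC125; over all tested genes such a p with a higher value in HC125 was found for 0.926% and 1.23%. Stouffer's method, applied to the p-values of each gene, called 0 of 26 members, with a smallest adjusted p of 1.00 and 0 members at an unadjusted p of 0.05 or less. It called 0.270% of all genes tested in both, and 1.75% had an unadjusted p of 0.05 or less.

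Ratios were spread around 1 with no common direction. In the paired-end libraries 16 of the 31 tested members had a higher value in HC125 and 15 a lower one, and the median log2(FPKM + 1) ratio of HC125 over N2 was 0.03 against -0.03 over all tested genes. In the single-end libraries 9 of 26 were higher and 17 lower, with a median of -0.14 against -0.04 over all tested genes. The pseudocount of 1 shrinks the ratios of low genes. A value was higher in HC125 for 41.7% and 40% of all tested genes.

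Between experiments the direction of a member's ratio was not stable. Of the 26 members tested in both tables, 3 were higher in HC125 in both (ins-7, ins-13 and ins-26) and 8 were lower in both (ins-1, ins-4, ins-9, ins-12, ins-17, ins-29, ins-30 and ins-37). The other 15 changed direction. The share with the same direction was 42.3% for members and 55.0% for all 12954 genes tested in both. Spearman's rho of the log2 ratios over the 26 members was -0.342, a description across genes. The difference between both log2 ratios (single-end minus paired-end) was largest relative to its error for ins-2, at -2.49 ± 1.65 (implied SE). No member passed a two-sided z test of this difference, adjusted over 12921 genes by the Benjamini-Hochberg method, which 0.00774% of those genes passed, and none of the 26 had an unadjusted p of 0.05 or less.

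**Figure D4:**
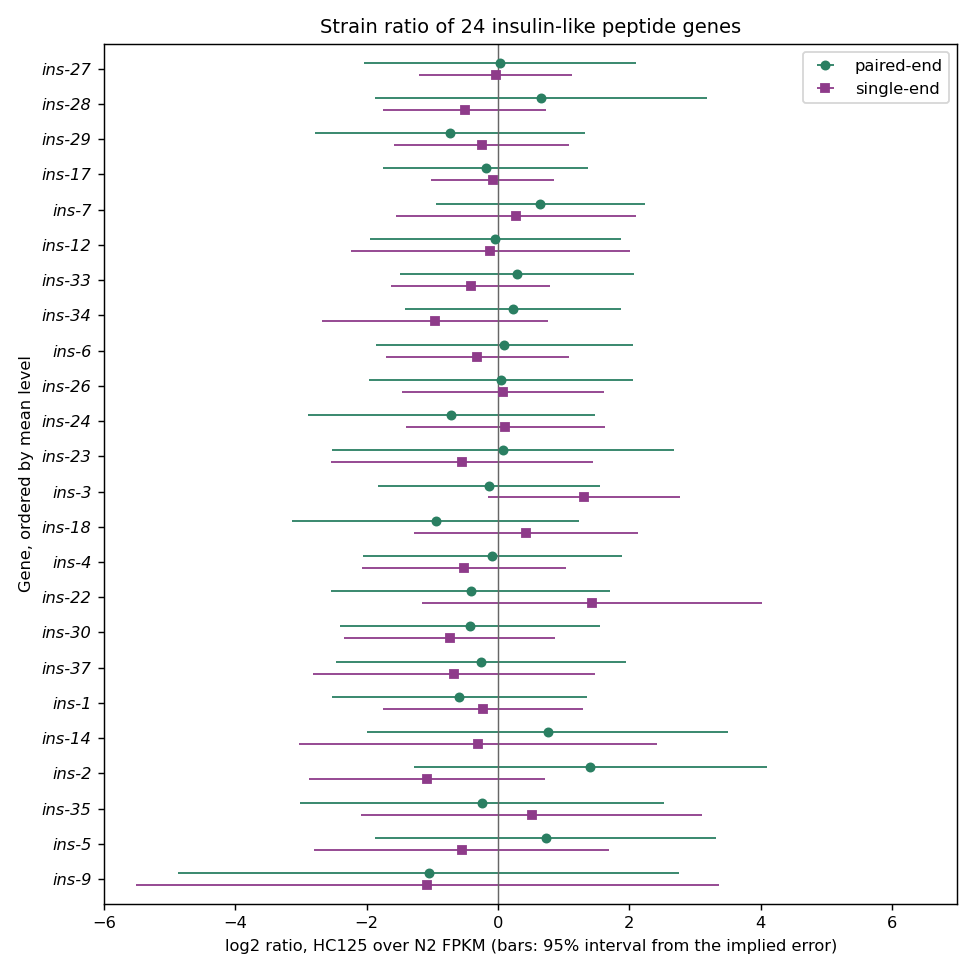
Points are the log2 ratio of HC125 over N2 for 24 insulin-like peptide genes tested in both experiments, ordered by level, with bars for the 95% interval from the implied error; circles are paired-end and squares single-end. ins-10 and ins-13 are left out for their wide implied errors. Every bar crosses 0, and for ins-2, ins-3 and ins-18 the points of the 2 experiments lie on opposite sides of 0.

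The errors leave room for sizeable differences. The median implied error of the members was 1.10 on the log2 scale with paired ends and 0.88 in the single-end libraries, against 0.66 and 0.40 over all tested genes. The 95% interval of the ratio included 1 for all 28 members with an implied error in the first table and all 26 in the second. Among genes with a mean of 1 to 10 FPKM and a value above 0 in both strains, the smallest absolute log2 ratio that the authors' deposited tables called was 1.83 with paired ends and 1.49 in the single-end libraries. In absolute size, 24 of 28 members in the first and 21 of 26 in the second had a log2 ratio of 1 or less. The largest was that of ins-32 in the paired-end libraries, where it went from 0.576 FPKM in N2 to 0.0972 FPKM in HC125 with p = 0.312 in the authors' deposited table, and it was at 0.340 and 0.345 FPKM in the single-end libraries.

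Among the insulin-like peptide genes, ins-3 had the smallest p of the single-end experiment. There it was at 0.749 FPKM for N2 and 1.85 FPKM for HC125, a ratio of 2.47 (95% interval 0.897 to 6.81), with p = 0.0496 and q = 1.00 in the authors' deposited table. The interval reads the test statistic of 1.75 as a normal score, and it includes 1 although the deposited p is below 0.05. In the paired-end libraries the ratio of ins-3 was 0.910 (0.282 to 2.94), so the higher value of HC125 was seen in 1 experiment. Of all tested genes, 2.40% had an unadjusted p of 0.05 or less in the single-end table.

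In the paired-end libraries the 3 members with such a p were ins-11, ins-19 and ins-21, and N2 was listed at 0 for each of them. ins-11, known as an intestinal peptide that limits learned avoidance of pathogens, was at 0.639 FPKM in HC125 with p = 0.0341 in the authors' deposited table. ins-19 was at 0.597 FPKM in HC125 with p = 0.00570 in the authors' deposited table, and ins-21 at 1.66 FPKM with p = 0.0279. All 3 had q = 1.00 there, and no fold is given against a value listed at 0. Over all tested genes 1.28% had an unadjusted p of 0.05 or less in this table, but among the 33 tested genes listed at 0 in N2 the share was 69.7%.

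Of those genes, ins-11 and ins-21 had the same order of strains in the single-end libraries, without a test. ins-11 was again listed at 0 in N2 and at 0.633 FPKM in HC125, and ins-21 at 0 in N2 and 0.843 FPKM in HC125. Both were marked there as too low to test. ins-19 was at 0.118 and 0.144 FPKM in that table. ins-39 was also listed at 0 in N2 in both experiments, with 0.0289 and 0.140 FPKM in HC125. No member showed the reverse, at 0 in HC125 and above 0 in N2 in both.

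Across all 20541 genes, 84 genes, or 0.409%, were at 0 in N2 and above 0 in HC125 in both experiments, and 105 genes, or 0.511%, showed the reverse. With the strain above 0 at 0.5 FPKM or more in both experiments, 11 genes showed the first pattern, ins-11 and ins-21 among them, and 1 gene showed the reverse. This floor was chosen after the values were seen. In the paired-end libraries the 12 listed hypodermal and moulting genes also had higher values in HC125. Their summed level was 17.8 FPKM for N2 and 79.1 FPKM for HC125, and 5 of 12 were called higher in the authors' deposited table. Over all tested genes 0.212% were called there. The list was chosen with earlier results of these data known, so its calls are a description only. The sum of the 12 genes with single ends was 46.3 and 39.5 FPKM. Of the 10 tested there, 6 were higher in HC125, with a median log2(FPKM + 1) ratio of 0.64. In the authors' deposited table for single ends 4 of them were higher and 2 lower at an unadjusted p of 0.05 or less, and col-73, a collagen gene, was at 0.314 and 1.74 FPKM. None of the 12 was listed at 0 in either strain in either table, and the part of these genes' difference in the values of ins-11, ins-19 and ins-21 was not tested.

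The listed markers of neurons and intestine were present in both strains and none was called. Over all tested genes 0.212% and 0.122% were called in the 2 experiments. The 10 neuronal markers summed to 285 FPKM for N2 and 275 FPKM for HC125 in the paired-end libraries and to 138 and 151 FPKM in the single-end libraries. The 10 intestinal markers summed to 2315 and 2159 FPKM, then to 6127 and 5324 FPKM. The summed FPKM of the 39 insulin-like genes was 92.8 in N2 and 98.5 in HC125, then 188 and 165.

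No gene of the receptor and FOXO list was called. Of the 19 listed genes, 16 were tested in each table, 0 were called and 0 had an unadjusted p of 0.05 or less in either of the authors' deposited tables, with median log2(FPKM + 1) ratios of -0.09 and -0.07. daf-2, the receptor, stood at 25.1 FPKM for N2 and 22.1 FPKM for HC125 with paired ends and at 17.3 and 15.8 FPKM with single ends. daf-16 had 90.7 and 77.1 FPKM with paired ends, 52.7 and 47.2 FPKM with single ends; both are named here for their role. By the mean of the 4 values the highest genes of the list were the 14-3-3 genes par-5, with 569 and 639 FPKM from paired ends, 1802 and 1725 FPKM from single ends, and ftt-2, with 178 and 163 FPKM from paired ends, 370 and 382 FPKM from single ends. As levels per length, daf-2 and daf-16 were above every insulin-like gene with paired ends, while with single ends daf-2 was below ins-27, ins-28 and ins-29.

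Genes that cut, carry and release peptides were also uncalled. Of 16 listed names 15 were found, all 15 were tested in both experiments and 0 were called. With 0.212% and 0.122% of all tested genes called, 0 of 15 says little. The name not found was rab-2, and this lookup by name does not show that a gene is missing. The highest were unc-108, a small GTPase needed for dense-core vesicles, with 184 and 178 FPKM from paired ends, 263 and 274 FPKM from single ends, and bli-4, a proprotein convertase, with 118 and 115 FPKM from paired ends, 90.3 and 85.2 FPKM from single ends. The only gene of the list with an unadjusted p of 0.05 or less was aex-5, another proprotein convertase, at 12.0 FPKM for N2 and 34.4 FPKM for HC125 with paired ends and at 6.62 and 12.2 FPKM with single ends. aex-5 had p = 0.00770 and p = 0.00555 with q = 1.00 in both of the authors' deposited tables.

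Of 20 listed targets of DAF-16 or the insulin pathway, 17 and 16 were tested. The paired-end table called 0, and the single-end table called 1 lower, dod-24, which was at 15.6 FPKM in N2 and fell to 5.94 FPKM with q = 0.0411 in the authors' deposited table. In the paired-end libraries dod-24 was at 15.9 and 9.88 FPKM. The median log2(FPKM + 1) ratios of the list were -0.10 and 0.02. The list was not split by whether DAF-16 raises or lowers a gene, so these medians do not read out the pathway. Over all tested genes, 0.212% were called with paired ends and 0.122% with single ends. An unadjusted p of 0.05 or less was found for 1.28% and 2.40% of them. In this list, at such a p in the authors' deposited tables, there were 2 lower genes with paired ends, and 2 lower and 1 higher with single ends. The lysozyme gene lys-7 was the 1 gene lower in both, with 106 and 65.3 FPKM from paired ends (p = 0.0312 in the authors' deposited table). From single ends lys-7 had 107 and 77.6 FPKM (p = 0.0153 in the authors' deposited table). Neither lys-7 value passed adjustment. sod-3, a superoxide dismutase widely used to read out DAF-16 activity, had 5.999 and 5.11 FPKM with paired ends, 2.24 and 3.00 FPKM with single ends.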

How the data were processed

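Per the labels' protocols, polyadenylated RNA of synchronized whole young adults was made into libraries with the TruSeq kit v2 (paired-end) or the Apollo 324 system (single-end). TopHat2 (2.0.1) and Cufflinks (2.2.1) are the tools listed in the submitters' processing notes, and the build is not given in the sources used here. Per the file headers, each table has the Cuffdiff layout. The authors computed the FPKM values, 1 per strain with its libraries combined, and deposited a test statistic (a score), a p-value and a q-value per gene. No reads per library are given, so no counting intervals are, and no label says whether replicates were separate cultures, so p-values may measure technical spread. Kits differ between tables, which were normalized separately and tested only within themselves.

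Ratios are HC125 over N2. The implied standard error is the log2 ratio divided by the deposited test statistic. A member was called at q of 0.05 or less. Genes marked as too low to test, failed or too deep had no completed test. Recomputing q by Benjamini-Hochberg from the deposited p gave the same values within 5e-07. Every ins- gene is a member; those named with values had 1 FPKM or more in any value or a deposited p of 0.05 or less, with the 2 highest or the called genes of each other list. daf-2, daf-16, aex-5, lys-7, col-73 and sod-3, and members below these limits, are named in addition. Members and lists were chosen with earlier results of these data known. Of genes whose end equals that in WBcel235, 2515 start 1 base lower in the files and 93 at the same base, so file starts were raised by 1 and positions count from 1. Python 3.11.15, pandas 2.3.3 and scipy 1.17.1 were used, and the combining and difference steps were tested on simulated data. Alternatives were other limits on q, p and FPKM, other pseudocounts, centring, a Stouffer combination and errors taken from p. No protein or DNA sequences were used here.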

Additional observations from a re-analysis of the deposited data

How the results depend on the processing

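No paired analysis was possible because the tables hold 1 pooled value per strain, and for the same reason no replicate could be left out. No member was called in either table, or in both, at q limits of 0.01 or 0.10 or with genes under a mean of 1 FPKM removed and q recomputed. At an unadjusted p of 0.05 the authors' deposited tables gave 3 members with paired ends and 1 with single ends, and 0 in both. The number detected in all 4 values was 17 at 1 FPKM, 23 at 0.5 FPKM, 26 at 0.1 FPKM and 3 at 5 FPKM. The median log2(FPKM + 1) ratio of 0.03 in the paired-end experiment turned to -0.027 among members with a mean of 1 FPKM or more; the cause was not tested. In the single-end experiment it ran from -0.23 (pseudocount of 0.1) to 0.00 (all members, tested or not). Errors taken from the deposited p gave 0 members whose ratio differed between experiments. Genes under 1 FPKM limit what can be seen, since their depth is unknown.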

Other observations

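The level of the family differed between the experiments more than between the strains, in a way that goes with neither strain. Of the 18 members at 1 FPKM or more in N2 in both tables, 12 had the higher N2 value in the single-end table. The 7 of them with a transcript of 400 bases or less had a median log2 ratio of single-end over paired-end N2 level of 1.70, while the 435 genes of that length in the tables had a median of -0.12. These 7 include ins-13 and ins-27, whose gene models in the files are unlike the annotated ones. The 8 members of 401 to 600 bases had a median of 1.16 against 0.08, and the 3 of 601 to 1000 bases had -0.19 against -0.13. ins-28 was at 3.74 on this scale, ins-27 at 2.203, ins-6 at 1.86 and ins-13 at 1.83. ins-7 went the other way, at -2.09, as did ins-12, at -0.96.

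Across the 18 members Spearman's rho of transcript length with this ratio was -0.370, and across 10816 genes it was -0.303. These are descriptions across genes. The tables were normalized separately and differ in kit, read layout and strandedness, so these values set levels side by side and compare no condition. The part of length in these values was not tested, and the parts of kit, read layout and strandedness cannot be told apart.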
